A study of Rattus norvegicus with 3 samples.

Results

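Small nucleolar RNA (snoRNA) records were taken as all records with the biotype snoRNA in the deposited tables of 3 rat kidney libraries, 1681 of 33194 records. They were split by whether the locus of a record is also that of a protein-coding record, which held for 572 records and not for 1109. The libraries came from the Dahl salt-sensitive strain (Dahl S) at 53 days of age, the Dahl salt-resistant strain (Dahl R) at 54 days and the spontaneously hypertensive rat (SHR) at 55 days. Weaning was at 30 days, and from then on every rat ate a diet with 0.3% salt, so no high-salt group is part of these data. Each strain has 1 library, and the labels state neither number nor sex of the animals behind it, so differences between libraries have no replicate check. Strain also cannot be told apart from age, although the ages differ by a day at a time. Kidney markers were present in every library, with Umod (uromodulin of the thick ascending limb) at 4028, 4475 and 5783 FPKM and Slc34a1 (the phosphate transporter of the proximal tubule) at 1082, 1205 and 857 FPKM. Where 3 values stand together they are those of Dahl S, Dahl R and SHR, in this order.

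snoRNAs are short stable RNAs of the nucleolus that guide chemical modification of other RNAs by base pairing. C/D box snoRNAs direct 2′-O-methylation with fibrillarin, H/ACA box snoRNAs direct pseudouridylation with dyskerin, and the related small Cajal body RNAs act on spliceosomal RNAs. U3 and U8, which carry C/D boxes, take part in the cleavage of ribosomal RNA precursors instead. Most vertebrate snoRNAs are cut out of introns of host genes, many of which encode ribosomal proteins or factors of ribosome assembly, while some hosts, such as Gas5, make no known protein.

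Sequences could be read for 5 small RNA hairpins that RefSeq names after a snoRNA gene. They are shown because RefSeq also annotates mature microRNA arms in them. Each is matched to the record of the same name, chromosome and strand, of which there was 1 in every case, and is the RefSeq annotation of build GRCr8, 5′ to 3′. Capitals mark the annotated mature microRNA arms.
Scarna15, chr1:144893856-144893919, plus strand: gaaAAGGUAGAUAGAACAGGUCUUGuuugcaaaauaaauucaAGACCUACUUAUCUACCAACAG
Scarna3, chr6:104955347-104955436, minus strand: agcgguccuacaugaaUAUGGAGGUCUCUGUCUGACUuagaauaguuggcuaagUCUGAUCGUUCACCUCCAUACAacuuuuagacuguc
Snora58, chr6:112811875-112811950, minus strand: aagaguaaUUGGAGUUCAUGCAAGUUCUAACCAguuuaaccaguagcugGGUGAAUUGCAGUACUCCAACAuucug
Snora19, chr7:60665891-60665959, plus strand: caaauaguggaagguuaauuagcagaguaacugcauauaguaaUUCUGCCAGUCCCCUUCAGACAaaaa
Snora36c, chr18:48150366-48150424, plus strand: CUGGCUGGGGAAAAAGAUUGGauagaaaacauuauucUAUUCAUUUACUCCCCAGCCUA

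Of these 5 records, the one named SNORA58, an H/ACA box snoRNA, was the most abundant, at 20.5, 26.6 and 49.5 FPKM. Its deposited limits were 8.69 to 32.4, 13.5 to 39.7 and 29.6 to 69.5 FPKM, so SHR was highest and its limits overlapped those of both other libraries. The record named SCARNA3 at the locus of Dcaf5 was at 4.73, 7.36 and 5.27 FPKM, and SCARNA15 at no protein-coding locus was at 1.45, 2.19 and 3.55 FPKM. SNORA19 at the locus of Usp15 was at 1.53, 1.78 and 2.37 FPKM, while the SNORA36 record on chromosome 18 was listed at 0 in Dahl S and Dahl R and at 0.640 FPKM in SHR. The value of a snoRNA record does not tell reads of a mature microRNA from those of the snoRNA. The tables also hold 928 microRNA records, and whether these hairpins are among them was not looked up. Whether each snoRNA record contains its hairpin was not checked by position.

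Most snoRNA records were not detected, and detection differed between the locus classes. In FPKM, which is a count of fragments scaled to record length and to all mapped fragments, 523, 544 and 558 records were above 0. At a protein-coding locus, 405 of 572 records were above 0 in at least 1 library and 303 had a mean of at least 1 FPKM over the 3 libraries. At no protein-coding locus the same counts were 362 and 132 of 1109. Of these 1109, 519 belong to 1 family, SNORA17, with 113 above 0 and 12 at that mean. The split by locus is thus in part a split by family. Within SNORA17, 21.8% were above 0 at no protein-coding locus. At a protein-coding locus it was 33.3% on the same strand and 34.4% on the other. The median level at a protein-coding locus was 1.56, 1.37 and 1.44 FPKM, and at no protein-coding locus it was 0 in each. Over all records of the tables, snoRNA made up 3.18%, 2.97% and 3.29% of the summed FPKM.

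Levels also differed between the classes of snoRNA, which were read from names. Of the C/D box records at a protein-coding locus, 119 of 155 had a mean of at least 1 FPKM, with a median of 16.2 FPKM over the records of the class. For H/ACA box records at such a locus it was 164 of 389, with a median of 0.630 FPKM. Of these 389, 112 were SNORA17 records, so family enters this contrast. Length may enter it too, as the classes were not compared at equal length. In records of 60 to 80 bases 1 fragment was worth a median of 3.68, 3.04 and 2.26 FPKM. In those of 120 to 140 bases it was worth 1.33, 0.980 and 0.795 FPKM. Records with SCARNA names, taken as the small Cajal body class, lay between these classes, with 14 of 21 and a median of 3.55 FPKM. Names beginning with snoU, such as snoU90 and snoU85, were counted as C/D box. Whether some of them are small Cajal body or H/ACA box RNAs was not checked, so counts and order hold for classes as named. At a mean of 100 FPKM or more stood 59 records, of which 52 had C/D box names, 3 had H/ACA box names and 4 had names that fix no class. A locus can hold protein-coding records on both strands. Of snoRNA records on the strand of any of them, 254 of 396 had a mean of at least 1 FPKM. Of the others at a protein-coding locus it was 49 of 176. In the same order it was 107 of 131 and 12 of 24 within C/D box records. Within H/ACA box records it was 128 of 240 and 36 of 149. Within the SNORA17 family the order was the other way, with 5 of 51 and 8 of 61. Whether reads were assigned by strand is not stated, so a snoRNA and a gene on the other strand may share reads. These shares describe the records of 3 libraries and are not tests, because copies of a snoRNA share sequence and records of a locus share a host.

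**Figure D1:**
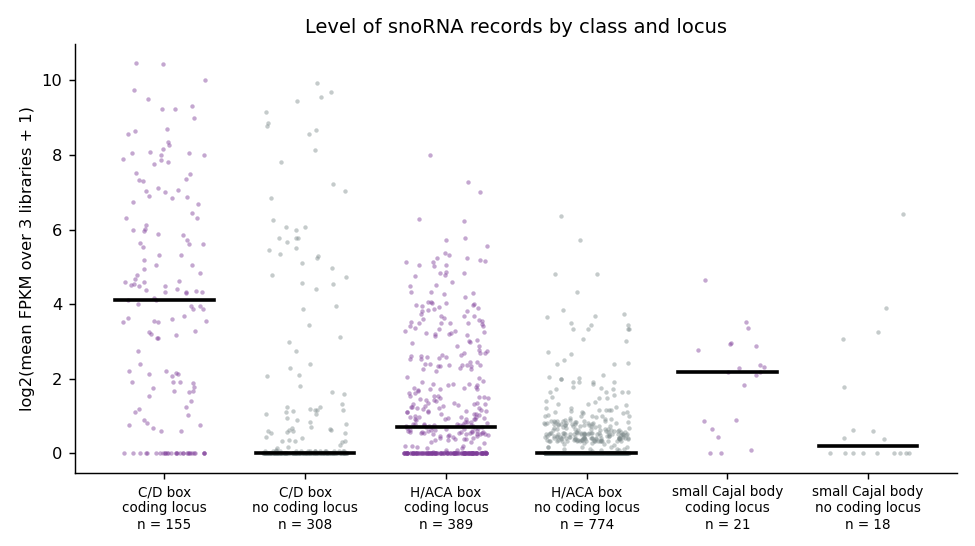
Each point is 1 snoRNA record, placed by the log2 of its mean FPKM over 3 libraries plus 1, and columns split the records by class as read from names (without the 16 of no named class) and by whether the locus is that of a protein-coding record. Black lines are medians, and of the 6 columns drawn the C/D box records at a protein-coding locus have the highest one, at 16.2 FPKM before the log scale.

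A few records held much of the snoRNA signal. The 10 most abundant ones in each library made up 36.2%, 35.1% and 33.0% of snoRNA FPKM, and the 50 most abundant ones 76.9%, 77.3% and 74.9%. The record with the highest mean was SNORD42 at the locus of Rpl23a (chr10:64451930-64454617 in the files' coordinates, build not given in the sources used here), which encodes a protein of the large ribosomal subunit. It was at 1324 FPKM in Dahl S (limits 915 to 1733), 1164 in Dahl R (813 to 1515) and 1719 in SHR (1222 to 2217), and all 3 sets of limits overlapped. The next was snoU83B at the locus of Rpl3, also of the large subunit, at 1556, 1319 and 1272 FPKM.

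Other abundant records at protein-coding loci were likewise of the C/D box class. One of the SNORD14 records on chromosome 8 was at 1136, 932 and 1029 FPKM. One of the SNORD33 records, at the locus of a gene described as 60S ribosomal protein L13a, was at 826, 827 and 906 FPKM. SNORD102 at Rpl21 was at 479, 603 and 722 FPKM, and SNORD57 at Nop56, which encodes a core protein of C/D box particles, was at 348, 509 and 656 FPKM. For both, Dahl S was lowest and SHR highest, with overlapping limits.

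Precision did not rise with abundance in step with counting. In the same 59 records the deposited limits reached no closer than 28.9% of the value on either side in any library. A SNORD83 record at 703, 747 and 740 FPKM showed the opposite extreme, with limits from 0 to 18937 FPKM in Dahl S; its locus on chromosome 20 is shared with many genes of the major histocompatibility region. One SNORD12 record, at 602, 594 and 695 FPKM, lies on the strand opposite to Znfx1, so its level cannot be set beside that of a host in these tables. In human, SNORD12 copies come from a non-coding host that runs antisense to ZNFX1.

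Records without a protein-coding locus reached similar heights. SNORD29 on chromosome 1 was at 897, 816 and 1239 FPKM, and SNORD48 on chromosome 20 was at 941, 851 and 674 FPKM. SNORD29 was thus highest in SHR and SNORD48 lowest there, each with overlapping limits. SNORD29 stands in a run of 8 records on the same chromosome (SNORD22 and SNORD25 to SNORD31, chr1:211390954-211393275), whose human counterparts come from the introns of the non-coding gene SNHG1. The members of this run spanned means from 3.23 FPKM for SNORD26 to 984 for SNORD29. Of the 8, 7 were higher in SHR than in Dahl R, and 4 were higher in Dahl S than in Dahl R.

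At the locus of Gas5, a growth-arrest gene known as a non-coding snoRNA host, 9 C/D box records share a span on chromosome 13 (chr13:76594779-76598102) with the Gas5 long non-coding record. SNORD77 was at 940 FPKM in Dahl S (limits 651 to 1229), 768 in Dahl R (535 to 1001) and 549 in SHR (380 to 719). SNORD74 was at 775, 715 and 587 FPKM, and SNORD47 at 593, 612 and 515 FPKM. In these 3 records SHR was lowest, and the limits of all libraries overlapped. SNORD24 was nearly level, at 402, 406 and 408 FPKM. A lower group followed with SNORD44 at 78.4, 78.4 and 43.1 FPKM, SNORD79 at 84.0, 49.6 and 66.1, SNORD81 at 51.0, 42.5 and 40.2 and SNORD75 at 49.98, 43.1 and 24.9. SNORD78 was listed at 0 in Dahl S and Dahl R and at 7.46 FPKM in SHR, with limits from 0 to 16.2.

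The sum over the 9 records was 2973, 2715 and 2241 FPKM, with 7 of 9 higher in Dahl S than in SHR. The Gas5 long non-coding record itself was at 9.78, 11.1 and 9.86 FPKM, so it did not show the order of that sum. Among the 8 records above 0 in every library, means ran from 39.3 FPKM for SNORD75 to 753 for SNORD77.

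**Figure D2:**
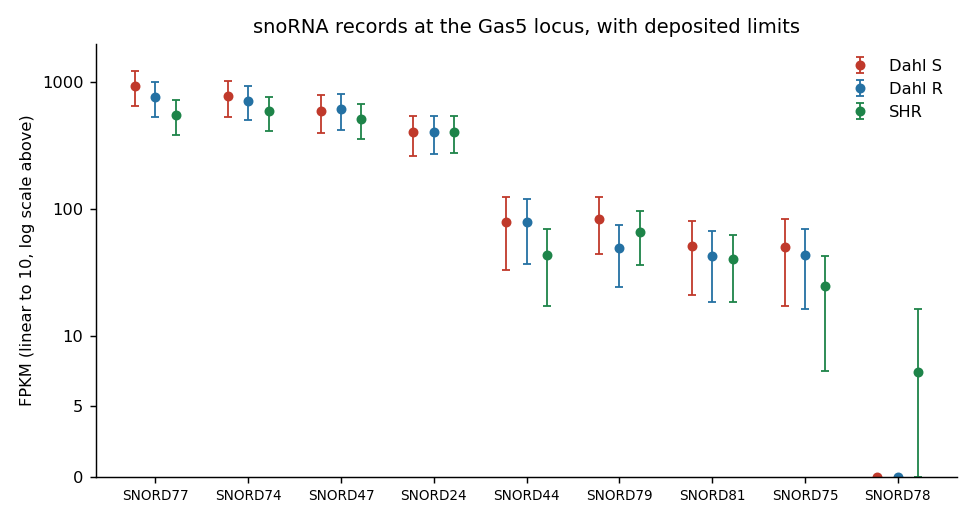
FPKM of the 9 snoRNA records at the Gas5 locus in the 3 libraries, on an axis that is linear up to 10 FPKM and logarithmic above; points are deposited values and bars the deposited limits. SNORD77, SNORD74, SNORD47 and SNORD24 have lower limits of at least 263 FPKM in every library, and SNORD78 is at 0 in Dahl S and Dahl R.

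Such unequal levels within a locus were common. Of 47 loci with more than 1 measured snoRNA record, 18 had members whose means differed at least 10-fold, and the median difference was 5.77-fold. With only records above 0 in every library it was 16 of 43 loci. At Nop56 the 5 records ran from SNORA51 at 5.18 FPKM to SNORD57 at 504 FPKM as means. At Taf1d, which encodes a subunit of the RNA polymerase I initiation factor, 8 records ran from 1.54 to 34.4 FPKM, led by SNORA8. Members of a locus are 1 source of RNA and not replicates.

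Level followed the host loosely. For 291 records on the strand of the only protein-coding record at their locus, Pearson's r between the log2 means of snoRNA and host was 0.40, and 0.20 over the 208 with a mean of at least 1 FPKM. The points come from the same libraries, and 217 loci supplied them. Where the host was under 1 FPKM, 11 of 25 snoRNA records were above 0 with a median of 0, and where it was above 100 FPKM, 39 of 41 were above 0 with a median of 21.7 FPKM. In 84 of the 208 the snoRNA lay above its host in mean FPKM. Rpl23a was at 89.0, 81.2 and 81.6 FPKM against 1324, 1164 and 1719 for SNORD42, and Rpl21 was at 2.19, 1.60 and 1.82 FPKM against 479, 603 and 722 for SNORD102. FPKM is scaled to length, but a record shorter than a typical fragment is scaled poorly by it, and intron reads of a host may enter the snoRNA record.

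Host promoters are shown because many known hosts begin transcription in a run of pyrimidines, the terminal oligopyrimidine tract of genes for the translation machinery. The windows hold 30 bases before and 30 bases from the RefSeq start of Gas5 and of the 8 matched hosts with the most abundant snoRNA records, build GRCr8, on the gene's strand. Capitals mark runs of at least 8 consecutive C or T, searched on that strand only.
Gas5, chr13:75836933-75836992, plus strand: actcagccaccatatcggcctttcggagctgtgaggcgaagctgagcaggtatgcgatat
Rpl3, chr7:113507961-113508020, minus strand: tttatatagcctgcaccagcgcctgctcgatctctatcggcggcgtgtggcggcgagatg
Rpl21, chr12:13386124-13386183, minus strand: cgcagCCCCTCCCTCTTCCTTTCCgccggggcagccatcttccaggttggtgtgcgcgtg
Nop56, chr3:137930149-137930208, plus strand: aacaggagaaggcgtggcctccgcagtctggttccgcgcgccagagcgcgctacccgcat
Rpl17, chr18:70856246-70856305, plus strand: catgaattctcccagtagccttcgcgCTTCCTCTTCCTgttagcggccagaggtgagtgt
Eef2, chr7:9189209-9189268, minus strand: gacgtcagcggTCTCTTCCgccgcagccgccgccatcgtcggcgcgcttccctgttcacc
Tomm20, chr19:71832391-71832450, minus strand: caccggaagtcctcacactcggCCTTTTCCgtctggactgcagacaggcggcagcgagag
Ncl, chr9:94456054-94456113, minus strand: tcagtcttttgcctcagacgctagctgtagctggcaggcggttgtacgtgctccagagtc
Rps12, chr1:23500045-23500104, plus strand: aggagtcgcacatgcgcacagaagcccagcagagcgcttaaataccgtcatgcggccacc

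Such a run stood in 9 of the 18 matched hosts whose snoRNA record had a mean of at least 100 FPKM, and in 33 of the 86 matched hosts with one of at least 1 FPKM, or 38.4%. It stood in 23.2% of all 27457 RefSeq promoters and in 21.9% of the 10002 that match a protein-coding name in the tables. The match is to letters near an annotated start, which need not be the start used in kidney, and hosts without a match were left out.

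Most records belonged to families with many copies. The 1681 records carry 215 family names. Of the 83 families with a single record, 73 had a mean of at least 1 FPKM, whereas the 23 families with 10 or more records held 1215 records, of which 152 reached that mean. SNORA17, an H/ACA box family, alone had 631 records on 21 chromosomes. Of these, 480 were listed at 0 in all libraries and 25 had a mean of at least 1 FPKM. A single SNORA17 record on chromosome 3 held 35.4% of the family's summed level, at 55.7, 47.2 and 51.2 FPKM, and the next highest had a mean of 3.91 FPKM. In snoU13 the leading record held 93.7% of the family, at 270, 179 and 223 FPKM.

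U3 was spread over more copies. Of its 35 records 14 had a mean of at least 1 FPKM, and 3 copies on chromosome 10 had identical values of 47.5, 44.9 and 69.8 FPKM. Identical values in all 3 libraries mean that the copies cannot be told apart in these tables, and the sources used here do not say how reads that match several copies were shared.

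**Figure D3:**
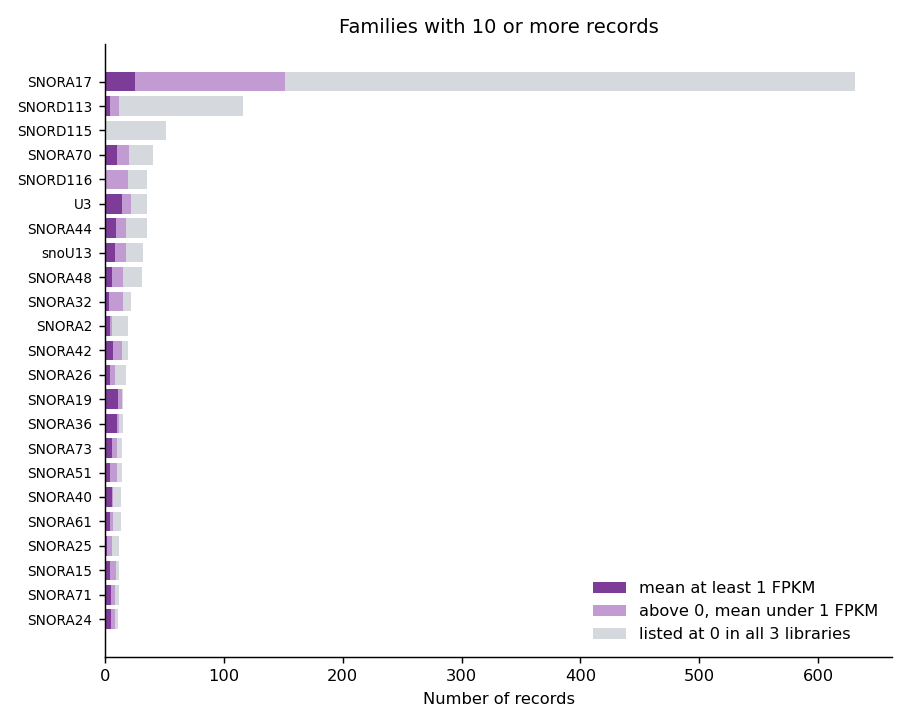
Number of records in each of the 23 snoRNA families with 10 or more records, split into those with a mean of at least 1 FPKM, those above 0 with a lower mean, and those listed at 0 in all 3 libraries. SNORA17 has 631 records, of which 25 reach a mean of at least 1 FPKM.

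The snoRNA clusters of imprinted regions were close to undetected. SNORD115 and SNORD116, whose human counterparts lie in the Prader-Willi region and are known from brain, had 51 and 35 records on chromosome 1. Of the SNORD115 records 1 was above 0, in SHR. Of the SNORD116 records 19 were above 0, all in Dahl R, and 13 of these carried the same value of 0.101 FPKM. The highest of them was at 3.27 FPKM in Dahl R. SNORD113, which belongs to the imprinted cluster with Meg3 in mammals, had 106 of its 116 records on chromosome 6, and 12 of the 116 were above 0. Its highest record was at 3.33, 0 and 9.56 FPKM. A value of 0 bounds little here: for records of 60 to 80 bases, 1 fragment was worth a median of 3.68, 3.04 and 2.26 FPKM, read from the deposited limits. The limit that a count of 0 allows, 3 fragments, is then 11.0, 9.11 and 6.79 FPKM, counting error only.

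Between libraries, a record was called when the log2 ratio of FPKM plus 1 was at least 1 in size, among the 435 snoRNA records whose mean reached 1 FPKM. In whole kidney RNA, fewer cells of a type and less RNA per cell cannot be told apart. Dahl S against Dahl R gave 53 records higher and 34 lower in Dahl S, 87 of 435, where 4.04% of all 17902 measured records passed the same rule (2.32% higher and 1.72% lower). Dahl S against SHR gave 41 higher and 54 lower in Dahl S, 21.8% against 5.06% of all (2.71% higher and 2.34% lower). SHR against Dahl R gave 60 higher and 28 lower in SHR, 20.2% against 4.4% of all (2.52% higher and 1.88% lower). Any pair has a library in common with the next, so these counts are not independent. In the same order of pairs, 26.9%, 29.9% and 21.8% of measured spliceosomal RNA records were called. For microRNA records it was 50.3%, 49.7% and 38.1%, and for records of the biotype misc_RNA 21.1%, 18.4% and 13.2%. A share above that of all records was thus not particular to snoRNA.

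Few of these calls held beyond the deposited limits. The limits of both libraries were apart in 1 higher and 2 lower records for Dahl S against Dahl R, in 0 and 10 for Dahl S against SHR, and in 13 and 1 for SHR against Dahl R, where 1.69%, 2.6% and 2.59% of all measured records were called with limits apart. Of the 87, 95 and 88 called records, 8, 21 and 26 had limits as narrow as those of at least 10 fragments in either library of the pair. The other 79, 74 and 62 did not, beside 350 of 723, 343 of 905 and 249 of 787 called records of all kinds. Calls with few fragments thus made up a larger part of the snoRNA calls. At a mean of 20 FPKM or more stood 143 snoRNA records, of which 5, 10 and 15 were called, or 3.50%, 6.99% and 10.5%, beside 1.3%, 2.68% and 2.3% of all records at that level.

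The abundant records leaned towards SHR. Of those 143 records, 114 were higher in SHR than in Dahl R, or 79.7%, and 100, or 69.9%, were not higher in Dahl S than in SHR. Over all 5220 records at that level the shares were 58.3% and 50.6%. The median log2 ratio of SHR over Dahl R was 0.23 for the 435 measured snoRNA records, 0.37 for C/D box and 0.16 for H/ACA box records, beside 0.24 for 197 measured spliceosomal RNA (snRNA) records and 0.04 for all measured records. For Dahl S over SHR the snoRNA median was -0.08 and for Dahl S over Dahl R 0.12, beside 0.00 and 0.04 for all records. These snoRNA medians kept their sign under both other scalings of the libraries. By the limits, 1 fragment was worth the least FPKM in SHR and the most in Dahl S; the part of depth in these shifts was not tested.

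**Figure D4:**
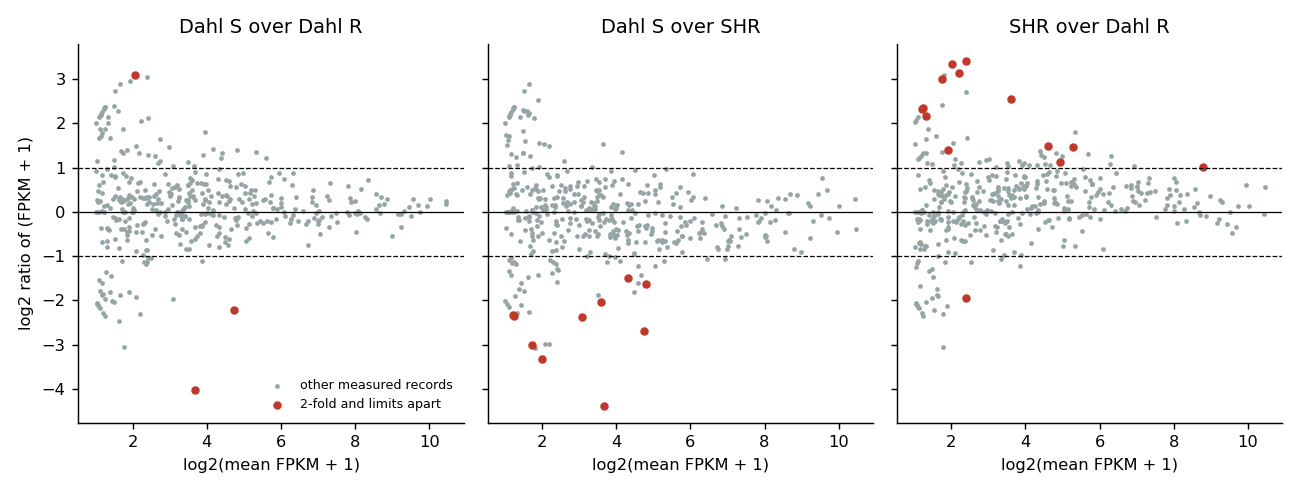
Log2 ratio of FPKM plus 1 against the log2 mean FPKM plus 1 for the 435 measured snoRNA records in the 3 pairs of libraries; dashed lines mark the 2-fold rule, and red points passed it with limits that did not overlap. Red points number 3, 10 and 14, and in the pairs with SHR all but 1 of them lie on the side of SHR.

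In all, 20 records were 2-fold apart with limits that did not overlap in at least 1 pair, and 17 of the 20 were highest in SHR. Per pair they were 3, 10 and 14 of 435, beside 1.69%, 2.6% and 2.59% of all measured records. That is below the share of all records for Dahl S against Dahl R and near it in the pairs with SHR. Neither the count over any pair nor the highest library was worked out over all records. A value was listed at 0 in at least 1 library for 10 of the 20, where limits of 0 and 0 make a weak check. Described here are the 10 with means of 5 FPKM or more.

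SNORA73 at the Grm8 locus, a family known for its part in ribosomal RNA processing, was lowest in Dahl S, at 5.61 FPKM (limits 1.42 to 9.81), 29.7 in Dahl R (17.0 to 42.3) and 42.0 in SHR (26.2 to 57.8). The log2 ratio was -2.21 against Dahl R and -2.70 against SHR. Grm8, a glutamate receptor gene, showed another order, at 3.11, 0.677 and 0.700 FPKM. SNORD11 at Nop58, the gene of another core C/D box protein, was listed at 0 in Dahl S and was at 15.4 FPKM (3.47 to 27.3) in Dahl R and 19.7 (6.81 to 32.7) in SHR. Nop58 itself was at 11.6, 9.27 and 15.8 FPKM. SNORD71 at Ap1g1 was at 1.53, 8.92 and 12.1 FPKM, with a log2 ratio of -2.37 for Dahl S over SHR, while the host was at 23.7, 28.7 and 22.1 FPKM. The SNORD71 limits in Dahl S, 1.41 to 1.65 FPKM, are as narrow as those of 633 fragments, far more than so low a value can hold, so its call by limits carries little weight. In these 3 records Dahl S was the low library, and the host differed less than 2-fold between libraries in 2 of the 3 loci.

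SHR was the high library in the others. SNORA33 at Rps12 was at 5.21 FPKM in Dahl S (limits 0 to 10.6), 3.38 in Dahl R (0 to 7.20) and 24.7 in SHR (12.5 to 36.8), with log2 ratios of 2.55 for SHR over Dahl R and -2.05 for Dahl S over SHR. Its host Rps12, of the small ribosomal subunit, was at 14.7, 13.7 and 8.19 FPKM, lowest where the snoRNA was highest. At the same locus SNORD101 was at 40.7, 14.7 and 26.5 FPKM, so records of this locus had different orders. SNORA1 at Taf1d was at 16.4, 13.6 and 39.7 FPKM, with a log2 ratio of 1.48 for SHR over Dahl R, beside 5.02, 4.57 and 7.89 FPKM for Taf1d. The record snoU90 at Kpna4 was at 28.9, 18.3 and 41.4 FPKM, beside 14.4, 13.7 and 10.7 FPKM for Kpna4.

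The remaining members of this group had loci of their own. U8 on chromosome 10, the C/D box RNA of large-subunit processing, was at 28.8 FPKM (limits 13.6 to 43.9), 22.2 (10.5 to 33.9) and 62.9 (38.5 to 87.2), with a log2 ratio of 1.46 for SHR over Dahl R. SNORA71 on chromosome 3 was at 14.9, 18.5 and 47.9 FPKM and SNORA74 on chromosome 18 at 9.87, 17.8 and 29.4 FPKM. Each of these was highest in SHR, with limits apart from 1 of the other libraries.

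One of a pair of SNORD49 records on chromosome 10 was at 359 FPKM in Dahl S (229 to 490), 319 in Dahl R (207 to 430) and 643 in SHR (447 to 838), a log2 ratio of 1.01 for SHR over Dahl R. Its neighbour SNORD49 record showed the other order, at 541, 442 and 412 FPKM, and SNORD65 beside them was at 165, 129 and 155 FPKM. The high value of the first in SHR was thus not shared by the records next to it.

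**Figure D5:**
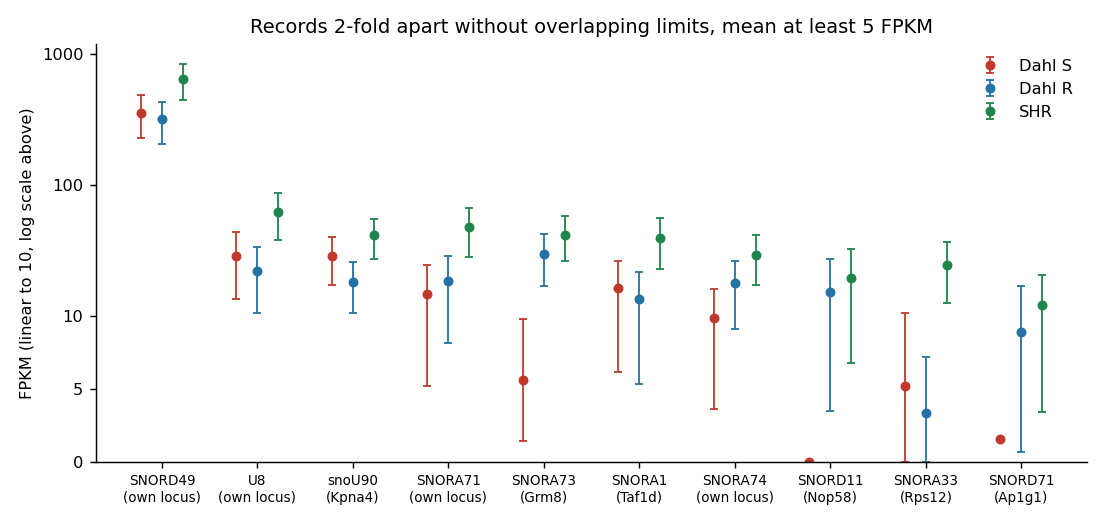
FPKM of the 10 snoRNA records with means of 5 FPKM or more that were 2-fold apart with limits that did not overlap in at least 1 pair, with the protein-coding gene of the locus in brackets, on an axis that is linear up to 10 FPKM and logarithmic above. Points are deposited values and bars the deposited limits; SHR is the highest library in all 10.

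Records called against both other libraries in the same direction numbered 26 higher and 16 lower in SHR, 24 higher and 20 lower in Dahl S, and 9 higher and 22 lower in Dahl R. As shares of the 435 these were 5.98%, 3.68%, 5.52%, 4.60%, 2.07% and 5.06%, and over all measured records the shares were 0.983%, 0.922%, 1.12%, 0.866%, 0.559% and 0.776%. Limits were apart from both others in 5 of the 26 records higher in SHR and in 2 of the 20 lower in Dahl S, SNORA73 and SNORD11, and in 0 of the other groups. Of those 5, SNORA33 had a mean of at least 5 FPKM, while a SNORA70 record on chromosome 1 was listed at 0, 0 and 9.07 FPKM and 3 SNORA17 records were listed at 0 in both Dahl libraries. For these SNORA70 and SNORA17 records and for SNORD11, limits of 0 and 0 at a listed 0 make a weak check. Only SNORA33 and SNORA73 were above 0 in every library. The counts of 5 and 2 have no background share, because limits apart from both others were not worked out over all measured records. No record was higher in Dahl R than in both others with a mean of at least 5 FPKM.

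Among higher records in Dahl S, snoZ30 on chromosome 10 was at 29.4 FPKM (11.3 to 47.5), 10.3 in Dahl R (1.89 to 18.7) and 10.9 in SHR (3.21 to 18.7), with log2 ratios of 1.42 and 1.35. SNORA76 on chromosome 10 was at 19.4, 9.03 and 6.05 FPKM, with a log2 ratio of 1.53 over SHR. SNORA40 at Rps16, another gene of the small ribosomal subunit, was at 8.74, 3.04 and 3.42 FPKM. Limits overlapped between all libraries in each of these 3. Among the 3 copies of SNORD58 at Rpl17, the one with the lowest level was at 23.3, 6.03 and 14.1 FPKM, and the most abundant at 339, 326 and 468 FPKM. The lowest copy was called as lower in Dahl R than in both others, with overlapping limits. It was not called for Dahl S against SHR, at a log2 ratio of 0.69.

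The proteins that make and carry snoRNA particles were looked at by the same rule. Of a list of 31 genes for C/D box and H/ACA box proteins, assembly factors, nucleolar proteins and trimming enzymes, 27 were matched and measured, and 0 were 2-fold apart in any pair. With 4.04%, 5.06% and 4.4% of all records called in the 3 pairs, a count of 0 among 27 is near the background. Limits were apart in 1 gene, Nop58, for SHR over Dahl R, with a log2 ratio of 0.71. Their median log2 ratios were 0.00 for Dahl S over Dahl R, 0.01 for Dahl S over SHR and -0.04 for SHR over Dahl R, beside 0.04, 0.00 and 0.04 for all measured records. Nhp2, a core H/ACA protein, was at 27.2, 23.9 and 26.0 FPKM, and Ncl, the nucleolin gene and itself a snoRNA host, at 29.2, 34.8 and 36.7 FPKM.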

How the data were processed

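Kidney RNA depleted of ribosomal RNA and size-selected on a gel was sequenced, per the labels' protocols. The authors deposited FPKM with lower and upper limits per record, per the file headers, and the submitters' processing notes name TopHat 1.3.1 and Cufflinks 1.0.3. The sources used here give no confidence level, build, annotation, strand use or read total, so depth was read only from the limits, as the square of 2 times the value over the distance to the upper limit. This number stops rising for abundant records. Positions are those of the files. With 1 library per strain no p-value was computed. Calls used log2(FPKM + 1) and a minimum mean of 1 FPKM. The added 1 shrinks the ratios of low records but does not keep single fragments from being called. In a record of 60 to 80 bases 1 fragment was worth a median of 3.68, 3.04 and 2.26 FPKM. There, 1 fragment against 0 can pass the rule. Box classes came from names, and names beginning with snoU were counted as C/D box. Members, the list of 31 genes and the rules were chosen with earlier results of these data known. Named records were the 10 highest of each locus class, the 6 highest and 6 lowest ratios per pair with a mean of at least 5 FPKM, and those called against both others; neighbouring records, other host records, the tissue markers and the RefSeq sequences were chosen after values were seen. The scripts were tested on simulated data. Python 3.11.15, numpy 2.4.6, pandas 2.3.3 and matplotlib 3.10.9 were used.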

Additional observations from a re-analysis of the deposited data

How the results depend on the processing

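No paired analysis was possible because each strain has 1 library. Counts of called records, for Dahl S against Dahl R, Dahl S against SHR and SHR against Dahl R, were 15, 24 and 21 with a pseudocount of 5, 218, 215 and 189 with no minimum, 20, 24 and 30 with a minimum mean of 5 FPKM, 3, 10 and 14 where limits had to be apart, and 34, 36 and 30 for records at no protein-coding locus. Requiring at least 10 implied fragments, chosen after seeing the data, gave 8, 21 and 26. With a pseudocount of 0.1 and both other scalings counts stayed within 1.5 times. The median log2 ratio turned to 0.037 for Dahl S over SHR and moved to 0.12 for SHR over Dahl R at no protein-coding locus, and to 0.31 for SHR over Dahl R with a minimum mean of 5 FPKM. Records with a lower limit above 0 numbered 258, 274 and 311 in Dahl S, Dahl R and SHR. Over records above 0 alone, the medians were 8.94, 8.33 and 8.69 FPKM at a protein-coding locus and 2.18, 1.39 and 1.65 FPKM elsewhere. The cause was not tested where fewer records did not follow from the alternative itself. Depth limits short records most.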
